A study of Mus musculus with 5 samples.

Results

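The genes described here are 43 genes of DNA replication and of the step from G1 into S phase, chosen by name and each read by the probe sets annotated to that gene alone. All 43 were measured out of 18193 genes that could be read by name, and their 91 probe sets are among 45037 compared between genotypes. The arrays hold RNA of hematopoietic stem cells (HSCs) from Atxn1L null mice (2 arrays) and wild-type (WT) mice (3 arrays), all of the strain C57Bl/6. The labels give an age of 6 to 8 weeks, whereas the study's methods state 8 weeks. Atxn1L is the paralog of Ataxin1, whose repeat expansion in people causes a spinocerebellar ataxia, and the null allele was present in every cell of the animal, not in HSCs alone. HSCs were sorted from bone marrow as side population cells, which exclude Hoechst dye, without lineage markers and positive for c-Kit, Sca-1 and CD150. Cells were pooled for each array, how many mice stand behind a pool is not stated, and the RNA was amplified before it was labeled. In pools of cells, a larger share of cells in cycle and more transcript per cell cannot be told apart.

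A cell copies its DNA once in each cycle. In G1 the origin recognition complex, Cdc6 and Cdt1 load the MCM helicase onto DNA, and in S phase Cdc7, Cdc45 and the GINS complex turn it into an active helicase, after which polymerases extend the strands with the help of the sliding clamp PCNA and its loader, replication factor C (RFC). Many of these genes are targets of the E2F factors, which cyclin E and its kinase partner help to free from the retinoblastoma protein at the end of G1. Most adult HSCs are out of cycle, and transcripts of replication genes are known as markers of the cells that have entered it.

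Since E2F factors bind near the starts of many of these genes, the upstream DNA of 3 members is shown, for Mcm5 and Mcm6, whose values in both Atxn1L null pools lay above all WT values, and for Rfc3, whose null values lay below them. Sequences are from RefSeq on the build GRCm38.p6, run 5′ to 3′ on the strand of the gene up to the base before its annotated start, and carry in capitals each match to TTTGGCGC, TTTGCCGC, TTTCGCGC or TTTCCCGC on either strand, letters of the E2F type. Mcm5 lies on the plus strand and its stretch is chr8:75109329-75109467. Mcm6 is on the minus strand, with chr1:128359706-128359885, and Rfc3 on the minus strand, with chr5:151651209-151651388.
Mcm5: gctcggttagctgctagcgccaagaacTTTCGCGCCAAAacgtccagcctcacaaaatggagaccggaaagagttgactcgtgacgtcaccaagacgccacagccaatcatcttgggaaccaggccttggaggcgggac
Mcm6: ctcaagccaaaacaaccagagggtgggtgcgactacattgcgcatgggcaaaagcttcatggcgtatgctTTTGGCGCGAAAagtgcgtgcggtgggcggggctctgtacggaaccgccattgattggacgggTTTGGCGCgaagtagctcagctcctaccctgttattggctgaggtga
Rfc3: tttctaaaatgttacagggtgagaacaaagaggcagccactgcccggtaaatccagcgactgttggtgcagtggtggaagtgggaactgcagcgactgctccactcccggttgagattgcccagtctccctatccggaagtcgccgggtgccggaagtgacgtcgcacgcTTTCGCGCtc

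In Mcm5 the capitals hold a match on each strand, TTTCGCGC and the reverse complement of TTTGGCGC, which overlap. In Mcm6 the first run of capitals holds TTTGGCGC and the reverse complement of TTTCGCGC, again overlapping, and the second run is TTTGGCGC alone. Rfc3 has TTTCGCGC next to its start. In the window from 250 bases before to 50 bases after the start, 14 of the 35 members with an entry in the RefSeq table (40%) held at least 1 match, against 704 of 27025 genes (2.60%) and 550 of 14453 genes on the array (3.81%). Among MCM genes, Mcm3, Mcm5, Mcm6 and Mcm7 held a match and Mcm2 did not. A match was held by 5 of 10 members with both null values above all WT values, by 2 of 6 with both below, and by 7 of 19 whose values overlapped. Matches were thus found among members of each kind, and a match describes the sequence and not a bound site.

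None of the 43 genes met the criterion of the comparison, an unadjusted limma p of at most 0.05 together with a fold of at least 1.5. The count was 0 higher, against 1.57% of all genes, and 0 lower, against 1.43% of all genes. Genes whose mean reached 5 in either genotype, a set that holds 38 of the members, had shares of 3.50% higher and 3.44% lower. At a p of at most 0.05 with no fold, 3 members were higher in Atxn1L null HSCs (Mcm5, Orc6 and Cdc6) and Rfc3 was lower. The background was 4.40% higher and 3.03% lower among all genes, and 9.09% and 7.13% among genes whose mean reached 5. The fold of 1.5 was reached with no p by Rfc4 and Pole, both higher in null HSCs. No member had an adjusted p under 0.05 (limma, Benjamini-Hochberg over all probe sets). With 2 pools against 3, the number of arrays limits every value, and the intervals of the differences had a median width of 0.51 on either side, on the log2 scale.

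Positive differences outnumbered negative ones. Of the 43, 30 had a positive difference (69.8%), against 45.4% of all genes. The share was 52.7% of the 7236 genes whose mean reached 5 in 1 genotype or both. That set holds 38 of the members, of which 27 were positive (71.1%). The median log2 difference, null minus WT, was 0.11 over the members and -0.002 over all genes. It was 0.18 over the 38 members whose mean reached 5 and 0.02 over all genes whose mean reached 5. Single members ran from -0.53 to 0.64. Both null values lay above all 3 WT values for 11 members (25.6%), against 9.14% of all genes and 18.4% of genes whose mean reached 5. Both lay below for 6 members (14.0%), against 8.35% of all genes and 15.4% of genes whose mean reached 5. Of the 38 members whose mean reached 5, 10 lay above (26.3%) and 5 below (13.2%), against the 18.4% and 15.4% of genes of similar signal. These differences in share were not tested, and no result about the members is read from them. Control probe sets for the ends of transcripts also differed between genotypes, since the 3′ value of Gapdh exceeded its 5′ value by 7.21 to 7.33 in null pools and by 5.89 to 6.02 in WT pools, and that of beta-actin by 7.28 to 7.43 in null and by 6.40 to 6.71 in WT pools. The part of these differences in the members' values was not tested.

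**Figure D1:**
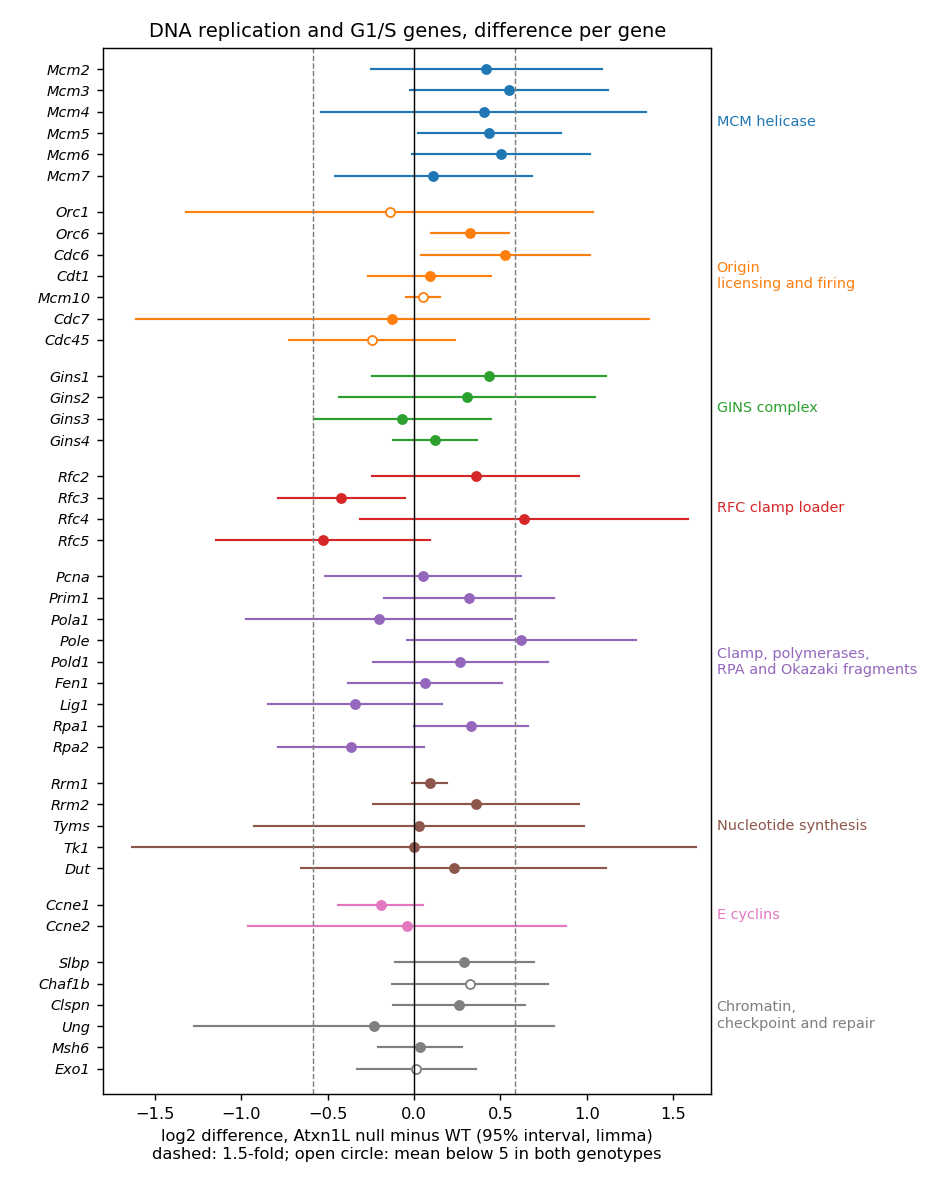
Log2 difference of each of the 43 genes, Atxn1L null minus WT (horizontal axis), with its 95% interval from limma (bars), grouped and colored by role (vertical axis), with dashed lines at 1.5-fold and open circles for genes with a mean below 5 in both genotypes. All 6 MCM genes lie to the right of 0 with a median of 0.43, while the 4 RFC genes lie on both sides, and only the intervals of Mcm5, Orc6, Cdc6 and Rfc3 leave out 0.

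The MCM genes, which encode the 6 subunits of the ring-shaped replicative helicase, were all higher on average in null HSCs, with differences of 0.11 to 0.55 and a median of 0.43, or 1.34-fold. None passed the criterion. Mcm5 read 12.09 and 12.05 in null pools, against 11.86, 11.62 and 11.42 in WT pools, a difference of 0.43 (SE 0.15, limma adjusted p = 0.850). Mcm3 read 9.03 and 9.21 in null pools, against 8.90, 8.46 and 8.35 in WT pools, a difference of 0.55 (SE 0.20, limma adjusted p = 0.929). Mcm6 read 11.72 and 11.51 in null pools, against 11.24, 11.27 and 10.83 in WT pools, a difference of 0.50 (SE 0.18, limma adjusted p = 0.920). In these 3 genes the genotypes did not overlap, with gaps between the lower null and the highest WT value of 0.19 for Mcm5, 0.13 for Mcm3 and 0.23 for Mcm6. Both null values lay above all WT values for 9.14% of all genes and 18.4% of genes whose mean reached 5. Mcm2 (6.56 in null, 6.14 in WT pools), Mcm4 (10.98 and 10.58) and Mcm7 (11.41 and 11.29) overlapped between genotypes. For Mcm4 the WT values alone spanned 10.06 to 11.01, wider than the difference of 0.40. For Mcm7 the highest value of the 5 arrays, 11.62, was that of WT 1.

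Other probe sets of the MCM genes mostly ran the same way. Of 7 with a mean of at least 5, 6 had a positive difference, among them a second probe set of Mcm3 at 0.50, with 8.25 and 8.49 in null pools against 8.14, 7.78 and 7.70 in WT pools. The exception was a probe set of Mcm7 at -0.15. All 6 MCM genes were read by probe sets that can bind related transcripts (IDs ending in _x_at or _s_at). Without such probe sets their median was 0.37, with Mcm7 at -0.62 and Mcm2 at 0.55, each on a probe set with a mean below 5 in both genotypes. Over all members, 14 of 17 other probe sets with a mean of at least 5 kept the sign of the brightest probe set, and the 3 that did not belong to Mcm7, Cdt1 and Tyms.

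**Figure D2:**
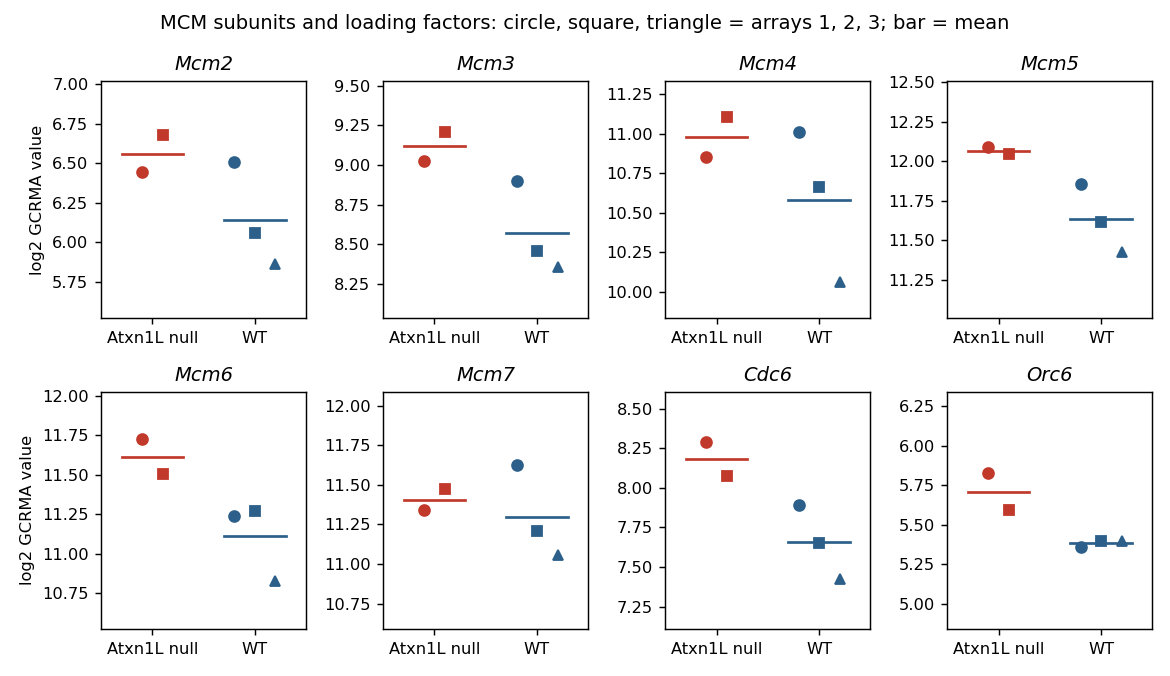
Log2 GCRMA values (vertical axes, each panel spanning its own range) of the 6 MCM genes and of the loading genes Cdc6 and Orc6 in Atxn1L null (red, left) and WT (blue, right) arrays, with circles, squares and triangles for arrays 1, 2 and 3 and bars for the means. In Mcm3, Mcm5, Mcm6, Cdc6 and Orc6 the red points lie above all blue points, whereas in Mcm2 and Mcm4 the circle of WT 1 lies between the red points and in Mcm7 it lies above both.

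The genes that place the helicase on DNA and activate it were mixed, with a median difference of 0.05 over 7 genes. Cdc6, the loading factor that recruits MCM to the origin recognition complex, read 8.29 and 8.08 in null pools, against 7.89, 7.65 and 7.42 in WT pools, a difference of 0.53 (SE 0.17, limma adjusted p = 0.835). Orc6, the smallest subunit of that complex, read 5.82 and 5.59 in null pools, against 5.36, 5.40 and 5.40 in WT pools, a difference of 0.32 (SE 0.08, limma adjusted p = 0.648). Both genes were higher in each null pool than in any WT pool, and the WT values of Orc6 spanned only 0.04. Cdt1, the partner of Cdc6 in loading, read 10.74 in null and 10.65 in WT pools, with an interval of -0.27 to 0.45, which lies within 1.5-fold on both sides. A second probe set of Cdt1 differed by -0.33, with an interval of -0.95 to 0.28 that reaches 1.5-fold lower. Cdc7, the kinase that triggers firing, read 7.66 in null and 7.79 in WT pools and was too variable to place, with WT values between 7.06 and 8.34. Orc1, Mcm10 and Cdc45 had means below 5 in both genotypes, a range in which GCRMA values carry little signal. The low readings of Cdc45, 3.81 and 3.98 in null and 3.98 to 4.41 in WT pools, belong to that range.

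The GINS genes encode the 4 subunits of the complex that joins Cdc45 and MCM in the moving helicase. Their median difference was 0.21, and in none of them did the genotypes separate. Gins1 read 7.82 and 7.41 in null pools, against 7.44, 7.24 and 6.86 in WT pools, a difference of 0.43 (SE 0.24, limma adjusted p = 1), so that the second null pool fell just under WT 1. Gins2 differed by 0.30 (7.36 in null, 7.06 in WT pools), Gins4 by 0.12 (7.05 and 6.92) and Gins3 by -0.07 (5.34 and 5.41). The intervals of Gins3 and Gins4 lay within 1.5-fold on both sides.

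The clamp loader was the subgroup whose members were furthest apart, with a median of -0.03 over differences of -0.53 to 0.64. Rfc2 to Rfc5 encode the small subunits that all RFC complexes share. Rfc3 read 6.89 and 6.51 in null pools, against 7.16, 7.11 and 7.08 in WT pools, a difference of -0.42 (SE 0.13, limma adjusted p = 0.799). Rfc5 read 9.98 and 10.55 in null pools, against 10.79, 10.95 and 10.64 in WT pools, a difference of -0.53 (SE 0.22, limma adjusted p = 1). These 2 subunits were lower in both null pools, while the other 2 were higher on average. Rfc4 read 7.48 and 6.52 in null pools, against 6.52, 6.35 and 6.22 in WT pools, a difference of 0.64 (SE 0.33, limma adjusted p = 1). The largest difference of all members thus rested on the first null pool, since the second null pool and WT 1 had an identical value. The probe sets used for Rfc2 and Rfc4 can bind related transcripts. A second probe set of Rfc4 differed by 0.29, with 5.41 and 4.85 in null pools against 4.85, 4.84 and 4.85 in WT pools. Rfc2 had the same form, at 10.30 and 9.67 in null pools against 9.67, 9.61 and 9.60 in WT pools. The value of the first null pool was thus 0.63 above the second in Rfc2 and 0.96 above it in Rfc4, while in Rfc5 it was 0.58 below.

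**Figure D3:**
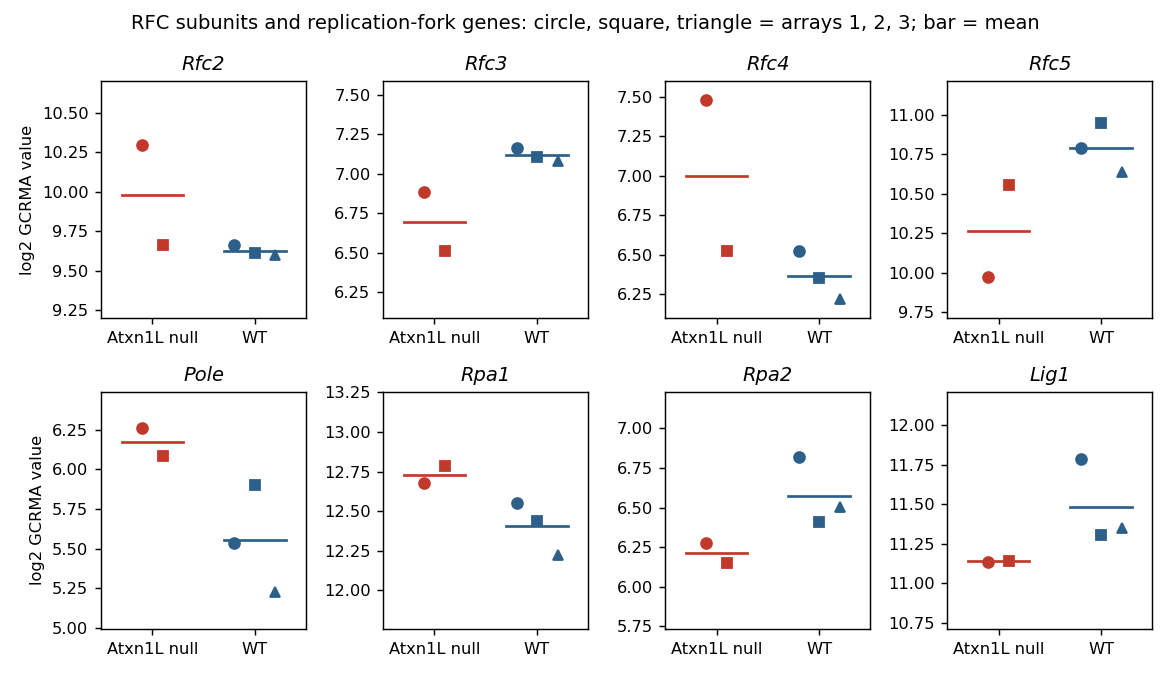
Log2 GCRMA values (vertical axes, each panel spanning its own range) of 4 RFC subunits and of Pole, Rpa1, Rpa2 and Lig1 in Atxn1L null (red, left) and WT (blue, right) arrays, with circles, squares and triangles for arrays 1, 2 and 3 and bars for the means. Rfc3, Rfc5, Rpa2 and Lig1 have both red points below all blue points and Pole and Rpa1 have both above, while in Rfc2 and Rfc4 only the circle of the first null array stands clear of the WT points.

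At the fork, the single-strand binding protein and the polymerases were divided. Rpa1, its large subunit, read 12.67 and 12.78 in null pools, against 12.55, 12.44 and 12.22 in WT pools, a difference of 0.33 (SE 0.12, limma adjusted p = 0.903). Rpa2, its middle subunit, read 6.28 and 6.15 in null pools, against 6.82, 6.41 and 6.50 in WT pools, a difference of -0.36 (SE 0.15, limma adjusted p = 1). These subunits therefore stood on opposite sides of WT, both without overlap, while the small subunit Rpa3, which is no member, read 8.07 in null and 7.96 in WT pools and overlapped. A second probe set of Rpa1 differed by 0.41, with 8.45 and 8.41 in null pools against 8.09, 8.32 and 7.66 in WT pools.

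Pole, the catalytic subunit of the leading-strand polymerase epsilon, read 6.26 and 6.09 in null pools, against 5.53, 5.90 and 5.22 in WT pools, a difference of 0.62 or 1.54-fold (SE 0.23, limma adjusted p = 0.948). Lig1, the ligase that seals Okazaki fragments, read 11.13 and 11.14 in null pools, against 11.79, 11.31 and 11.35 in WT pools, a difference of -0.34 (SE 0.18, limma adjusted p = 1). Its null pools were nearly equal and lay below every WT pool. The other members of the fork overlapped between genotypes. Pcna, the sliding clamp, read 12.57 in null and 12.52 in WT pools, and Fen1, the nuclease that trims Okazaki fragments, 11.55 and 11.48. Prim1, the primase, differed by 0.32 (9.22 in null, 8.90 in WT pools), Pold1, of polymerase delta, by 0.27 (8.77 and 8.50), and Pola1, of polymerase alpha, by -0.20 (8.56 and 8.76). The median over the 9 genes was 0.06, and without WT 3 it was -0.05.

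The genes of nucleotide synthesis had a median difference of 0.09. Rrm2, the regulated subunit of ribonucleotide reductase, read 10.04 and 9.82 in null pools, against 9.32, 9.89 and 9.50 in WT pools, a difference of 0.36 (SE 0.21, limma adjusted p = 1), with WT 2 between the null pools. Rrm1, its large subunit, was measured far more tightly, at 10.67 ± 0.07 (SD, n = 2) in null and 10.58 ± 0.01 (SD, n = 3) in WT pools, and its interval ran from -0.01 to 0.19. On this probe set, the interval of Rrm1 leaves room for a small difference but not for a 1.5-fold one. Dut, which removes dUTP, read 8.79 in null and 8.57 in WT pools, and Tyms, the thymidylate synthase, 5.69 and 5.67, with a spread between the null pools of 5.19 to 6.20. Tk1, the thymidine kinase of S phase, averaged 5.51 in both genotypes, but its WT values ran from 4.59 to 6.11 and its interval from -1.63 to 1.63, so that a change was not detectable with these arrays.

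On the probe sets used, the E cyclins, which drive entry into S phase, were the only subgroup with no positive difference. Ccne1 read 7.33 and 7.42 in null pools, against 7.64, 7.43 and 7.63 in WT pools, a difference of -0.19 (SE 0.09, limma adjusted p = 1), with hardly any gap between the higher null value and the lowest WT value. Ccne2 read 6.58 in null and 6.62 in WT pools. On the probe set used for Ccne1, which can bind related transcripts, a 1.5-fold change lay outside the interval of -0.44 to 0.05. A second, dim probe set of Ccne1 differed by 0.335, with an interval of -0.025 to 0.696 that reaches 1.5-fold higher. It read 4.64 and 4.43 in null pools, against 4.13, 4.38 and 4.09 in WT pools. The interval of Ccne2 ran from -0.96 to 0.88.

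The last group, of genes that act on chromatin, the checkpoint and repair at forks, had a median of 0.15. Chaf1b, a subunit of the histone chaperone CAF-1, read 4.51 and 4.59 in null pools, against 4.35, 3.95 and 4.38 in WT pools, a difference of 0.33 (SE 0.16, limma adjusted p = 1) at a dim signal. Slbp, which binds the stem loop of histone mRNAs, read 7.62 ± 0.01 (SD, n = 2) in null and 7.33 ± 0.21 (SD, n = 3) in WT pools, and its second probe set differed by 0.70. Clspn, an adaptor of the replication checkpoint, read 6.09 ± 0.28 in null (SD, n = 2) and 5.83 ± 0.02 in WT pools (SD, n = 3). These 3 genes had both null values above all WT values, as did 9.14% of all genes and 18.4% of genes whose mean reached 5. For Clspn the gap between the lower null and the highest WT value was 0.04. Ung, the uracil DNA glycosylase, read 10.09 in null 2 and lower in null 1, on either side of its WT values of 9.70 to 9.86. The mismatch repair gene Msh6, at 8.55 in null and 8.51 in WT pools, and the exonuclease gene Exo1, dim at 3.50 and 3.49, did not separate. On the probe set used, intervals within 1.5-fold on both sides were found for 10 of the 43 genes, namely Orc6, Cdt1, Mcm10, Gins3, Gins4, Fen1, Rrm1, Ccne1, Msh6 and Exo1, and 7 other members had an interval that reached 1.5-fold in both directions.

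The arrays of a genotype differed among themselves in a way that many members shared. Of the WT arrays, WT 3 had the lowest value for 28 of 43 members (65.1%), and for 6 of 6 MCM genes, while it was the lowest for 32.2% of genes whose mean reached 5. WT 1 had the highest WT value for 26 of 43 members (60.5%) and 5 of 6 MCM genes, against 36.6% of genes whose mean reached 5. Members of these complexes share the same 5 libraries, so that the counts describe arrays and not independent genes. The median deviation of the MCM genes from the WT mean was 0.38 in null 1 and 0.47 in null 2, against 0.33 in WT 1, -0.05 in WT 2 and -0.26 in WT 3. Over all members it was 0.27 and 0.14 in the null arrays, against 0.08, -0.01 and -0.13 in the WT arrays. WT 1 therefore lay nearer to the null arrays than to WT 3 for the MCM genes. The mean of the null arrays was above WT 3 for 33 of 43 members and above WT 1 for 27. For the 38 members whose mean reached 5 the counts were 29 and 24. Among all 7236 genes whose mean reached 5 they were 3720 and 3744, and among all 18193 genes 5697 and 12748.

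**Figure D4:**
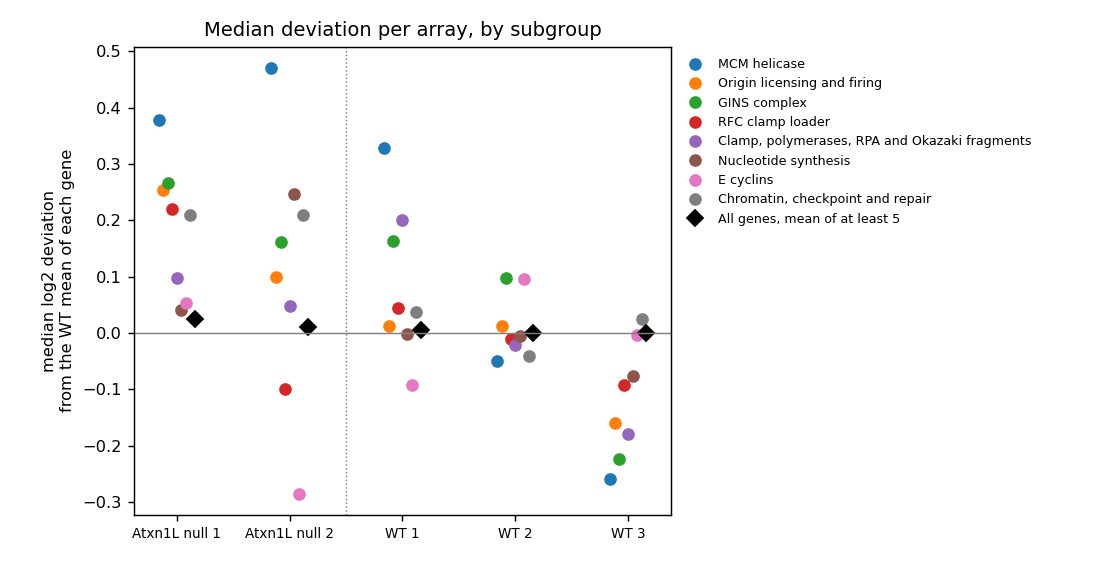
Median log2 deviation from the WT mean of each gene (vertical axis) in each array (horizontal axis), by subgroup (colors) and over all genes whose mean reached 5 (black diamonds). The MCM genes reach 0.38 and 0.47 in the Atxn1L null arrays and 0.33 in WT 1 but -0.26 in WT 3, while the diamonds stay near 0.

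Single calls moved with the arrays used. Without WT 1, Mcm2 (0.60), Mcm3 (0.71) and Cdc6 (0.65) met the criterion, against 201 higher and 164 lower over all 18193 genes. Without WT 2, Pole did (0.80), against 282 higher and 314 lower over all genes. No member passed without WT 3, where 198 of all genes were higher and 190 lower. With all 5 arrays 285 of all genes were higher and 260 lower. Without a null array the null arm is 1 sample, which is then assumed to vary like the WT arrays, so that the spread in these fits is that of WT alone. Without null 2 the differences were 0.67 for Rfc2, 1.11 for Rfc4, -0.82 for Rfc5 and -0.78 for Ung. Without null 1 the difference of Rfc3 was -0.61. No calls are read from the fits with 1 null array. Of the 3 fits that left out a WT array, Mcm5 and Cdc6 kept a p of at most 0.05 in 1, without WT 1, and Orc6 and Rfc3 in 0. The median of the MCM genes stayed positive in all 5, at 0.30 to 0.58.

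Of 66 further replication genes, none of them a member, 62 were measured, 51 of them with a mean of at least 5. At the criterion 3 rose and 0 fell. The background was 1.57% and 1.43% of all genes, and 3.50% and 3.44% of genes whose mean reached 5. The median difference of the 62, 0.11, equaled that of the members to 2 decimals, and 45 of 62 were positive. Both null values lay above all WT values for 16 of the 62 (25.8%) and below for 6 (9.68%). Among genes whose mean reached 5 these shares were 18.4% and 15.4%. Tipin, a partner of the fork protection factor Timeless, read 7.59 and 7.30 in null pools, against 6.78, 6.79 and 6.48 in WT pools, a difference of 0.76 (limma adjusted p = 0.529). Dck, the deoxycytidine kinase of nucleotide salvage, read 6.35 and 6.16 in null pools, against 5.60, 5.48 and 5.45 in WT pools, a difference of 0.74 (limma adjusted p = 0.344). Rfc1, the large subunit of the clamp loader, read 10.41 and 10.30 in null pools, against 9.59, 9.89 and 9.77 in WT pools, a difference of 0.60 (limma adjusted p = 0.490). In each of these, both null pools lay above all WT pools. The RFC complex thus held a large subunit that passed and small subunits on both sides of WT. Of 37 measured genes of mitosis and G2/M, 28 had a mean of at least 5, and 2 rose and 0 fell. The background was the same, 1.57% and 1.43% of all genes and 3.50% and 3.44% of genes whose mean reached 5. The 37 had a median of 0.11 and 24 positive differences. The kinetochore gene Ndc80 read 6.16 and 6.04 in null pools, against 5.45, 5.61 and 5.37 in WT pools (0.63, limma adjusted p = 0.404). The proliferation marker Mki67 read 10.71 and 10.41 in null pools, against 9.75, 9.77 and 9.59 in WT pools (0.86, limma adjusted p = 0.384).

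Atxn1l was lower in the pools labeled null. The probe set with the smallest p read 3.23 and 3.65 in null pools, against 6.31, 6.52 and 5.74 in WT pools (limma adjusted p = 0.344), although the files do not say whether it lies in the part that the null allele lacks. Of 13 measured HSC markers, 11 had a mean of at least 5 and 0 passed. Procr, the endothelial protein C receptor, read 13.39 in null and 13.58 in WT pools and the HSC transcription factor Meis1 11.40 and 11.85. Both null values of Meis1 lay below all WT values, with a difference of -0.46 and an interval of -0.84 to -0.08 (limma adjusted p = 0.767). In 1 marker, Mllt3, both lay above, with a difference of 0.58. Slamf1, which encodes the CD150 used in the sort, was dim at 3.89 and 3.92. Of 34 measured markers of progenitors, blood lineages and stroma, 1 passed, the progenitor receptor Cd27. It was dim, at 4.06 and 3.97 in null pools against 3.47, 3.22 and 3.55 in WT pools (0.60, limma adjusted p = 0.536). Correlations between arrays over all probe sets ran from 0.989 to 0.995, and array medians from 3.03 to 3.07.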

How the data were processed

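RNA of pooled, sorted HSCs was measured on 5 Affymetrix mouse arrays (2 Atxn1L null, 3 WT), which give no read depth. The authors ran GCRMA, in an unstated version, on the probe intensities, and the deposited table holds 1 log2 value for each of 45101 probe sets after background correction, quantile normalization and summarization. The log base is not stated and was inferred from their range. All value columns were mapped from the labels.

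From there, 64 control probe sets were left out and 45037 were fitted with lmFit and eBayes of limma 3.58.1 (R 4.3.3), with a mean per genotype, no block, and 3 residual and 0.771 prior degrees of freedom. A call needed a limma p-value up to 0.05 and a fold of 1.5 or more, the thresholds of the study's text. The study's methods name a correction for false discovery, but the text does not say whether it was applied to this p-value. The p-value was used unadjusted here. Benjamini-Hochberg adjustment ran over all 45037. The fit was tested on simulated data. p-values measure the spread between pools, and nothing in the labels says how many animals each pool holds.

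The platform's annotation gave 34945 probe sets 1 gene, 932 several and 9160 none. The probe set with the highest mean over the 5 arrays stood for its gene, and others served as a check. Levels of different probe sets were not compared. A mean under 5 in both genotypes was called dim. Probe sets of 13 members end in _x_at or _s_at and can bind related transcripts, and 13 genes of the comparison lists had no named probe set and are not reported here.

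The members and lists were chosen with earlier results of these data known, so lists are described by counts and medians with no test. Array values are given for members whose genotypes did not overlap at an absolute difference of at least 0.3 and for the largest difference of each subgroup, and for passing genes of the other lists, up to 4 a direction. Values of other single arrays, Rfc2, Rpa3 and the second probe sets were picked after they were seen. Tried as alternatives were array weights, a trended and robust variance, median centring and a further quantile normalization, the removal of cross-hybridizing or of dim probe sets, other criteria, other treatments of several probe sets, the replicate number used as a block, and fits without each array.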

Additional observations from a re-analysis of the deposited data

How the results depend on the processing

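With the criterion as used, 0 members were higher and 0 lower, against 285 and 260 of all 18193 genes. A variance trend with robust estimation gave 1 higher (Pole), against 343 higher and 337 lower over all genes. Array weights gave 2 higher (Mcm3 and Chaf1b) and 1 lower (Rfc5), against 386 and 382. Probe sets with a mean of at least 5 alone gave 1 higher (Pole), against 317 and 333 among the genes left. With p alone 3 members were higher and 1 lower, against 801 and 552 of all genes. The fold alone gave 2 higher, against 513 higher and 594 lower. An adjusted p under 0.05 gave 0 members. Renewed quantile normalization, median centring, leaving out cross-hybridizing probe sets, either other treatment of several probe sets and the block gave 0 in both directions. Leaving out each WT array gave 0 to 3 members higher and 0 lower. Over all 5 fits without 1 array, the median of the members was 0.059 to 0.272. Subgroup medians without each array were 0.042 to 0.253 for licensing, 0.082 to 0.297 for GINS, -0.10 to 0.22 for RFC, -0.05 (without WT 3) to 0.207 for the clamp, polymerase and RPA group, 0.04 to 0.247 for nucleotide synthesis, -0.285 to 0.053 for the E cyclins and 0.116 to 0.209 for the chromatin group. Other settings moved the licensing median to 0.207 (mean of at least 5), -0.026 (mean of probe sets) and -0.007 (every probe set), that of the E cyclins to 0.148 (no cross-hybridizing probe sets), that of RFC to 0.041 (mean of probe sets) and 0.259 (every probe set) and that of the chromatin group to 0.084 (mean of probe sets) and 0.012 (every probe set). The cause was not tested.

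Signs turned for Fen1 (-0.171) and Exo1 (-0.138) with array weights and for Tk1 (0.007) with quantile normalization. Without cross-hybridizing probe sets they turned for Mcm7 (-0.622), Fen1 (-0.545) and Ccne1 (0.335), and with the mean of a gene's probe sets for Mcm7 (-0.116), Cdt1 (-0.081), Fen1 (-0.241), Tyms (-0.071), Ccne1 (0.071) and Exo1 (-0.005). Other probe sets with a mean of at least 5 turned for Mcm7 (-0.152), Cdt1 (-0.334) and Tyms (-0.302). This check left out 31 others with a mean under 5. Leaving out each array gave differences on both sides of 0, or at 0, for 16 members: Mcm7 -0.008 to 0.276, Orc1 -0.693 to 0.412, Cdt1 -0.072 to 0.253, Mcm10 0 to 0.10, Cdc7 -0.555 to 0.305, Gins3 -0.199 to 0.058, Pcna -0.091 to 0.207, Pola1 -0.389 to 0.008, Fen1 -0.05 to 0.182, Tyms -0.476 to 0.528, Tk1 -0.465 to 0.297, Dut -0.064 to 0.522, Ccne2 -0.423 to 0.345, Ung -0.778 to 0.312, Msh6 -0.059 to 0.125 and Exo1 -0.106 to 0.133.

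The genotypes share only the replicate numbers 1 and 2, whose arrays did not deviate together (r = -0.033 and -0.257 over all probe sets). With the replicate number as a block, WT 3 carries no weight in the difference, 0 members passed in either direction, the members' median was 0.059, that of the MCM genes 0.303 and that of the clamp, polymerase and RPA group -0.05, and signs turned for Mcm7 (-0.008), Pcna (-0.091), Fen1 (-0.05) and Exo1 (-0.043).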
